A study of Sus scrofa with 36 samples.

Results

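The genes described here are the core genes of the circadian clock, as expressed in pig subcutaneous adipose tissue. They were chosen by name from a list of 10 symbols (ARNTL, CLOCK, PER1, PER2, PER3, CRY1, CRY2, NR1D1, NR1D2 and DBP). The rule itself uses no measured value, but the list was drawn up with earlier results of these data known. Of these, 7 had a row among the 12253 genes of the deposited table, and all 7 were tested: ARNTL (ENSSSCG00000013397, also written BMAL1), CLOCK (ENSSSCG00000008909), PER1 (ENSSSCG00000017983), PER2 (ENSSSCG00000016338), CRY1 (ENSSSCG00000000164), CRY2 (ENSSSCG00000013270) and NR1D2 (ENSSSCG00000027017). PER3, NR1D1 and DBP could not be matched to a row and were not analysed here. The animals were F2 pigs of an intercross between Göttingen minipig boars and Duroc sows, ranked by a genetic Obesity Index and taken from the low end (lean), the middle (intermediate) and the high end (obese) of its distribution, with 12 pigs per group and RNA from 1 pig per library. The lean group held 7 males and 5 females, and the intermediate and obese groups held 6 males and 6 females each. The pigs were slaughtered near the same weight, so that lean pigs were older at slaughter, and age and group cannot be told apart in these samples. A group could include full sibs. The time of day at which each pig was slaughtered, which bears directly on clock genes, is not given in the sources used here.

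The clock is a feedback loop of transcription that runs in nearly every cell with a period of about a day. ARNTL and CLOCK form a dimer that binds E-box elements and switches on the PER and CRY genes and the REV-ERB receptors NR1D1 and NR1D2. The PER and CRY proteins return to the nucleus and inhibit the dimer, and the REV-ERB receptors repress transcription of ARNTL, CLOCK and CRY1. In a tissue followed over the day, ARNTL therefore peaks when NR1D2 and the PER genes are low. In adipose tissue the clock is known to gate lipolysis, lipogenesis and adipokine release. A single tissue sample per animal shows 1 moment of this cycle, so the present data describe how the clock genes stood relative to each other across 36 pigs, not a rhythm.

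Recovered reads ranged from 8735839 to 11755925 per pig, with a median of 10496910. Levels are given below as normalized counts, which are reads divided by the size factor of the library, and differences are on the log2 scale of the deposited values. An SD expected from counting covers counting error only. Levels of different genes are not compared with each other, since no transcript lengths were used. The adipocyte markers PLIN1, CIDEC, LIPE and PLIN4, which were 4 of 8 listed, summed to between 24381 and 91235 normalized counts in every pig, and no listed skeletal muscle gene had a row. The 2 skin genes with a row summed to 14389.6 in lean pig 7 and to at most 1038.8 in any other pig. In bulk tissue, fewer cells of a type and less RNA per cell cannot be told apart.

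The activator ARNTL was a low-count gene with a wide spread between pigs. Its normalized count was 22.8 at the lowest, 47.5 at the median and 113 at the highest in lean pigs, 26.3, 69.1 and 153 in intermediate pigs, and 33.4, 76.1 and 121 in obese pigs. The medians stood higher from lean to obese, but the 3 groups overlapped over most of their range. Its SD over all pigs was 0.78 on the log2 scale, which placed ARNTL at percentile 92.8 of all genes by SD, where the median gene had 0.34. At 20 to 167 reads per pig, counting alone would give an SD of about 0.20.

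CLOCK, the dimer partner of ARNTL, was measured with 13 to 62 reads per pig. Its normalized counts ran from 12.8 over a median of 23.9 to 63.1 in lean pigs, from 29.2 over 38.8 to 57.4 in intermediate pigs and from 16.1 over 29.1 to 55.4 in obese pigs. The intermediate pigs lacked the low values seen in both other groups. Its log2 SD of 0.58 has to be read against a counting SD of 0.27, the largest share of counting error among the 7 genes.

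PER1 and PER2 encode the light- and hormone-responsive repressors of the loop. PER1 normalized counts were 3371, 4897 and 6514 (lowest, median, highest) in lean pigs, 1735, 4336 and 6776 in intermediate pigs, and 2424, 4476 and 7167 in obese pigs. PER2 was at 255, 388 and 848 in lean pigs, 101, 322 and 650 in intermediate pigs, and 113, 348 and 625 in obese pigs. For both genes the lowest values were found in intermediate and obese pigs. The log2 SD of PER1 was 0.29 in lean pigs, 0.70 in intermediate pigs and 0.51 in obese pigs, and that of PER2 was 0.46, 0.84 and 0.72, but no test of the difference in spread was run.

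The cryptochromes CRY1 and CRY2, the partners of the PER proteins in repression, had ranges that overlapped widely between the groups. CRY1 normalized counts were 180.0, 240 and 358 in lean pigs, 123, 265 and 402 in intermediate pigs and 136, 220.0 and 619 in obese pigs. CRY2 was at 344, 565 and 950 in lean pigs, 496, 685 and 1207 in intermediate pigs and 363, 579 and 994 in obese pigs. The obese group had both low and high CRY1 values, with a log2 SD of 0.74 compared with 0.34 in lean pigs.

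NR1D2, the REV-ERB beta receptor, had the lowest SD of the 7 genes over all pigs, though not within the lean group, where PER1 was lower, or the intermediate group, where CLOCK was. Its normalized counts were 922, 1511 and 1895 in lean pigs, 782, 1333 and 2018 in intermediate pigs and 798, 1258 and 1701 in obese pigs. Its log2 SD of 0.36 was at percentile 54.3 of all genes, close to the median gene, but several times its counting SD of 0.040. Its medians stood lower from lean to obese, the opposite order of ARNTL, again with groups that overlapped.

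**Figure D1:**
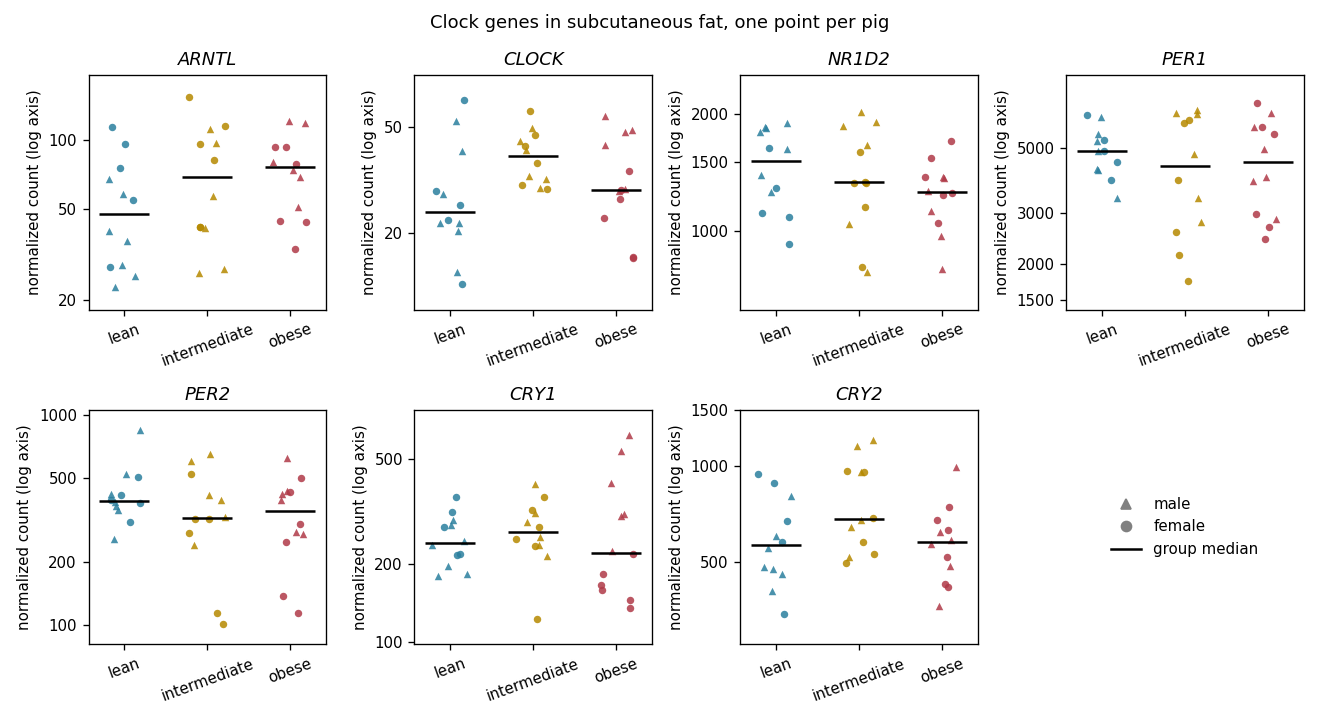
Normalized counts (reads divided by the size factor, log axis) of the 7 clock genes in each pig of the lean, intermediate and obese groups; triangles are males, circles are females and black lines are group medians. The groups overlap for every gene; the obese males and obese females separate for CRY1, at 223 to 619 and 136 to 217.

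The first question was whether the clock genes differed in level between the obesity groups. No clock gene passed in obese against lean pigs (limma with sex as a term, Benjamini-Hochberg adjusted over 12253 genes), where 0.0408% of all genes passed. The largest difference was that of ARNTL, at 0.52 ± 0.30 on the log2 scale (SE, 12 pigs per group, limma adjusted p = 0.431), with a 95% interval from -0.09 to 1.12. NR1D2 differed by -0.23 ± 0.14 (limma adjusted p = 0.464) and PER2 by -0.37 ± 0.25 (limma adjusted p = 0.512). CLOCK was at 0.23, PER1 at -0.17, CRY1 at 0.05 and CRY2 at -0.04, all with intervals across 0. Cell type markers did not pass in the same comparison, where the median was 0.80 over 5 macrophage markers (5 above 0, 4 at an unadjusted p below 0.05), 0.81 over 3 T or NK cell markers (3 above 0), 0.81 over 2 blood markers (2 above 0) and -0.30 over 4 endothelial markers (4 below 0). It was 0.32 over 4 adipocyte markers (3 above 0, 2 at an unadjusted p below 0.05). Fibroblast or progenitor markers had 0.26 (4 of 6 above 0) and skin markers -0.64 (2 of 2 below 0). Their part in the values of the clock genes was not tested. At an unadjusted p below 0.05 limma found 0 of the 7 clock genes and 1800 of all genes, and with voom weights it again called 0 of the 7. The median difference of the 7 genes was -0.04 and that of all genes -0.01, and none of the 7 differences was larger than the spread between pigs.

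Intermediate pigs were compared with the same 12 lean pigs, so the 2 comparisons share them. No gene of the table passed (0%), and 1535 genes had an unadjusted p below 0.05. Among these was CLOCK, at 0.54 ± 0.22 higher in intermediate pigs (p = 0.0187 in limma, adjusted p = 0.316). Macrophage markers stood higher too, with a median of 0.63 and 5 of 5 above 0 but none past the threshold, and their score had r = 0.34 with CLOCK after group and sex; their part in the CLOCK value was not tested. CRY2 was at 0.36 ± 0.18, ARNTL at 0.39 ± 0.30 and PER2 at -0.37 ± 0.25, with limma adjusted p-values of 0.402, 0.603 and 0.557. Obese against intermediate pigs likewise gave no gene (0%), with 524 genes at an unadjusted p below 0.05. The latter included CRY2, at -0.40 ± 0.18 (p = 0.0332 in limma, adjusted p = 0.989). With voom weights, too, 0 clock genes passed in either comparison. A linear trend over the 3 groups called 0.0245% of all genes and no clock gene. The trend was 0.26 ± 0.15 per group step for ARNTL and -0.11 ± 0.07 for NR1D2, with limma adjusted p-values of 0.427 and 0.458, and 0 of the 7 had an unadjusted p below 0.05, where 14.5% of all genes stood, or passed with voom weights. ARNTL and NR1D2 thus had differences of opposite sign at each step, none of which was distinguishable from the spread between pigs.

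**Figure D2:**
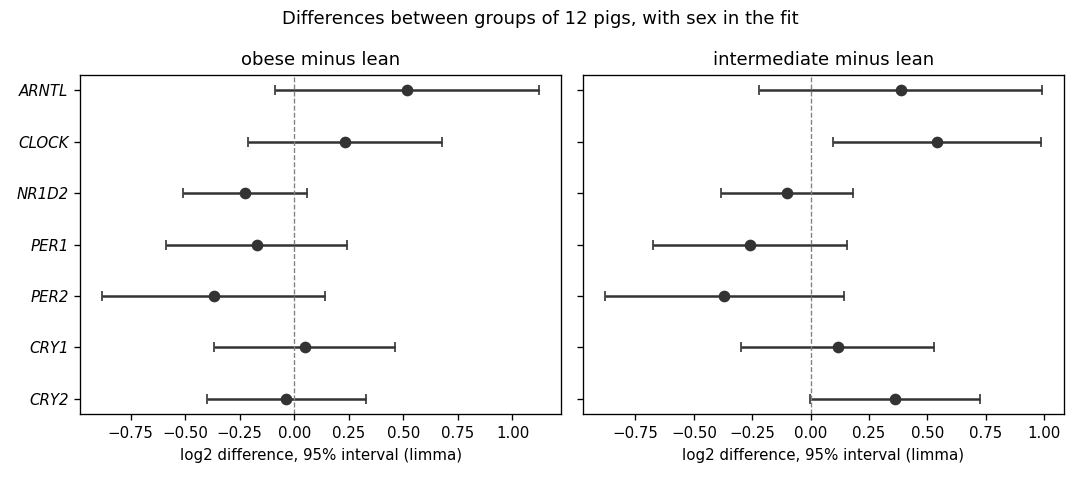
Log2 differences in the 7 clock genes for obese minus lean (left) and intermediate minus lean pigs (right), as points with 95% intervals from limma, with 12 pigs per group and sex in the fit. In obese minus lean every interval crosses 0, and in intermediate minus lean only that of CLOCK, from 0.10 to 0.99 before adjustment, does not.

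Males and females were compared over the 3 groups. Of all genes 2.19% differed between the sexes, but no clock gene did. PER2 was 0.50 ± 0.21 higher in males (p = 0.0198 in limma, adjusted p = 0.183) and CRY1 0.36 ± 0.17 higher (p = 0.0382, adjusted p = 0.246), which were the 2 of 7 with an unadjusted p below 0.05, where 18.3% of all genes stood. Other lists were compared between the sexes in the same fit. Fibroblast or progenitor markers had a median of 0.60 in males minus females (5 of 6 above 0, 1 past the threshold) and adipocyte markers of -0.44 (4 of 4 below 0, 1 past the threshold). Medians were -0.31 for macrophage (5 of 5 below 0), -1.07 for T or NK cell (3 of 3 below 0) and -0.76 for blood markers (2 of 2 below 0), with none past the threshold. The 5 temperature-responsive genes had 0.27 (4 above 0, none past the threshold). Their part in the values of PER2 and CRY1 was not tested. Whether obese and lean pigs differed alike in both sexes was then examined by an interaction term, which called 0.00816% of all genes and no clock gene. At an unadjusted p below 0.05 there were 4 of 7 clock genes and 12.9% of all genes. CRY1 came closest, with an interaction of 1.53 ± 0.32 on the log2 scale (95% interval 0.87 to 2.19, p = 3.97e-05 in limma, adjusted p = 0.0627). Its mean was 0.76 higher in obese than in lean males and 0.77 lower in obese than in lean females, the latter a log2 difference of -0.77. In normalized counts, CRY1 was at 180.0 to 294 in 7 lean males and 223 to 619 in 6 obese males, and at 215 to 358 in 5 lean females and 136 to 217 in 6 obese females. All 6 obese males were above every obese female. ARNTL had an interaction of 1.37 ± 0.56 (p = 0.0209, adjusted p = 0.308 in limma), CLOCK of 0.91 ± 0.42 (adjusted p = 0.348) and NR1D2 of -0.64 ± 0.26 (adjusted p = 0.308). The interaction of the median gene was 0.09, and it was 0.00 when the whole size factor was divided out, where CRY1 had an adjusted p of 0.175 in limma. With the whole size factor 0 genes passed in limma, and 1456 of all genes and 3 of 7 clock genes had an unadjusted p below 0.05. Other lists stood on the same side as CRY1: the median interaction was 0.82 over 6 glucocorticoid-induced genes (3 at an unadjusted p below 0.05), 0.72 over 5 macrophage markers, 0.56 over 6 fibroblast or progenitor markers, 1.18 over 2 blood markers, 0.57 over 7 immediate early genes and 0.37 over 4 endothelial markers, with none of these genes past the threshold. T or NK cell markers, at -1.24 (3 of 3 below 0), and adipocyte markers, at -0.29 (3 of 4 below 0), stood on the other side. Their part in the CRY1 interaction was not tested.

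The second question was how activator and repressor genes stood to each other from pig to pig. Group and sex were removed from each gene, and the residuals over 36 pigs were correlated with those of ARNTL for all 12252 other genes. NR1D2 had the lowest correlation with ARNTL of all 12252 genes, at r = -0.759 (Spearman's rho = -0.758), and ARNTL had in turn the lowest correlation with NR1D2 of all genes. The permutation p was 1e-05, the smallest that 100000 two-sided permutations can give, with a Benjamini-Hochberg adjusted p of 0.00721 for r and 0.0136 for rho over all genes. At this threshold 3.55% of all genes passed by r and 1.73% by rho. Single pigs at the ends of the range show the opposite movement of the 2 genes, with exceptions in between. Lean pig 4 had the lowest ARNTL of its group, 22.8, and the highest NR1D2, 1895, whereas lean pig 1 had 113 and 922. Among intermediate pigs, the highest ARNTL, 153 in pig 4, went with an NR1D2 of 808, and the 3 lowest, from 26.3 in pig 11 to 41.4 in pig 2, went with NR1D2 at 1668 to 2018. Obese pig 10 had 33.4 for ARNTL and 1701 for NR1D2, and obese pig 6 had 121 and 798. Obese pig 4, however, had a high ARNTL of 119 with NR1D2 at 1368, above the obese median, and obese pig 7 a low ARNTL of 44.0 with NR1D2 at 1232, below it. In the lean group, both genes were below their medians in pig 7 (36.3 and 1260) and above them in pig 11 (57.9 and 1836).

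The correlation was -0.732 within lean pigs, -0.847 within intermediate pigs and -0.425 within obese pigs, and -0.728 within females and -0.715 within males. Without the 2 pigs farthest from the ARNTL median (intermediate pig 4 and lean pig 4) it was -0.732. With any 1 pig left out it stayed between -0.798 and -0.736. Library size moved with both genes: the log2 size factor had r = 0.40 with ARNTL and -0.24 with NR1D2 on the deposited scale, and 0.32 and -0.40 after division by the whole size factor. On the latter scale the correlation of ARNTL and NR1D2 was -0.777.

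**Figure D3:**
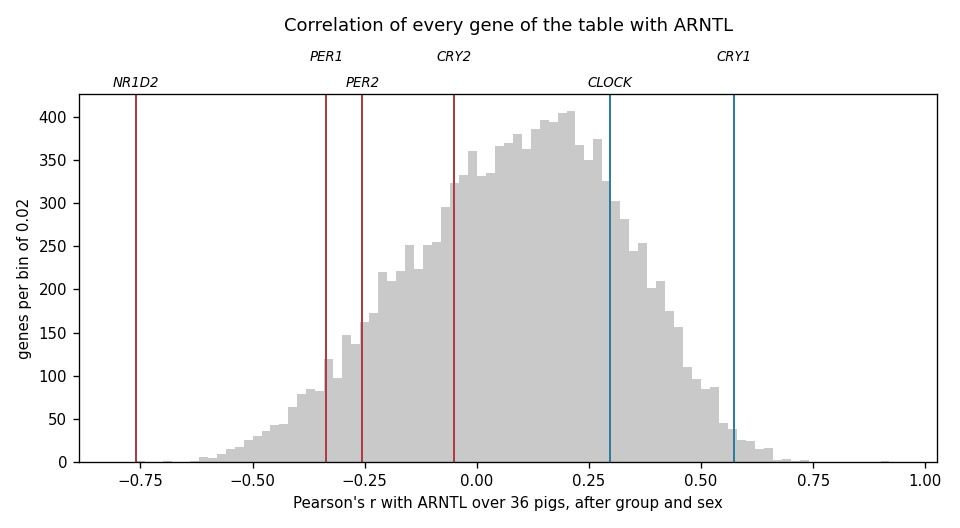
Histogram of Pearson's r with ARNTL over 36 pigs, after group and sex, for all 12252 other genes of the table in bins of 0.02; vertical lines mark the 6 other clock genes. NR1D2, at -0.759, is at the lower end of the distribution and CRY1, at 0.572, in the upper tail, with the median gene at 0.10.

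The same relation was fitted as a slope in limma, with group and sex as terms, where 0.841% of all genes passed (87 with a positive and 16 with a negative slope). Of the 6 clock genes tested, NR1D2 fell and CRY1 rose with ARNTL. NR1D2 was lower by 0.35 ± 0.05 log2 units per log2 unit of ARNTL, a slope of -0.35 (limma adjusted p = 0.000959). It passed in all 36 fits that left out 1 pig each, with adjusted p-values from 0.000143 to 0.00567, and in each of the other alternatives run. With the log2 size factor as a further term its slope was -0.36 (limma adjusted p = 0.00312). With the whole size factor divided out, 21 genes had a positive and 35 a negative slope among those called, with each pig's median subtracted 14 and 27, and with the log2 size factor in the fit 3 and 3, so that the excess of positive slopes among all genes depends on the scaling, while NR1D2 passed under each of these.

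CRY1, which is itself repressed by the REV-ERB receptors and peaks late in the cycle, had a slope of 0.39 ± 0.10 (limma adjusted p = 0.0414) and r = 0.572 with ARNTL (rho = 0.551, adjusted permutation p = 0.0266 and 0.0421), position 112 from the highest of 12252 genes. Its r was 0.771 within lean, 0.343 within intermediate and 0.336 within obese pigs, 0.265 within females and 0.607 within males, and 0.434 before group and sex were removed. It lost significance when the whole size factor was divided out (limma adjusted p = 0.0743), when each pig's median was subtracted (0.0802), without the sex term (0.138) and with the log2 size factor as a term (0.149). It was also lost in 16 of the 36 fits with 1 pig left out, namely those without lean pigs 1, 4, 5, 8, 10 or 12, intermediate pigs 4, 7 or 11 or obese pigs 4, 5, 6, 7, 9, 10 or 11, where adjusted p reached up to 0.098 in limma. The slope itself stayed positive, at 0.34 to 0.40 in these 16 fits and at 0.37, 0.37, 0.32 and 0.36 in the 4 settings before them. Markers of other cell types moved with CRY1: the mean scaled level of 6 of 8 fibroblast or progenitor markers had r = 0.52 with it, and that of 5 of 8 macrophage markers r = 0.50. The fibroblast markers summed to 145660 to 551988 normalized counts in lean, 200654 to 515732 in intermediate and 130379 to 653024 in obese pigs, and the macrophage markers to 1598 to 8419, 2219 to 8268 and 3625 to 9490. With these scores in the fit the slope of CRY1 on ARNTL was 0.34 (fibroblast, limma adjusted p = 0.0445) and 0.36 (macrophage, 0.0345).

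The remaining clock genes did not pass. PER1 had a slope of -0.23 ± 0.11 on ARNTL (p = 0.0457 in limma, adjusted p = 0.257) and r = -0.336, and PER2 a slope of -0.22 ± 0.15 (adjusted p = 0.413) and r = -0.255. CLOCK had r = 0.297 and a slope of 0.21 (limma adjusted p = 0.347), and CRY2 r = -0.052. Within lean pigs the r of CLOCK was -0.098, within intermediate pigs 0.528 and within obese pigs 0.231. The signs for both PER genes were those of NR1D2, but with a p above the threshold neither relation can be told from none in this fit. Within lean pigs, PER1 and PER2 had r = 0.209 and 0.177 with ARNTL, within intermediate pigs -0.522 and -0.528, and within obese pigs -0.589 and -0.507. The slopes of obese and lean pigs were compared by an interaction term, in which 0.204% of all genes and no clock gene passed, with 1 of 6 at an unadjusted p below 0.05 against 15.1% of all genes. The slope of PER1 was lower in obese pigs by 0.64 ± 0.30, a difference of -0.64 (p = 0.0373, adjusted p = 0.299 in limma), that of PER2 differed by -0.72 ± 0.38 (adjusted p = 0.377) and that of NR1D2 by 0.11 ± 0.16 (adjusted p = 0.786). In the same fit the median slope difference was -0.81 over the 6 glucocorticoid-induced genes with a row (5 below 0), -0.70 over 6 fibroblast markers (6 below 0), -1.73 over 2 blood markers (2 below 0) and 2.03 over 3 T or NK cell markers (3 above 0), with none past the threshold. Their part in the values of PER1 and PER2 was not tested. With the whole size factor divided out, the slope difference of NR1D2 was 0.0071, and 3 genes of the table passed, all with a positive difference. In females PER2 had r = -0.619 with ARNTL and in males 0.015, a difference that was not tested.

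**Figure D4:**
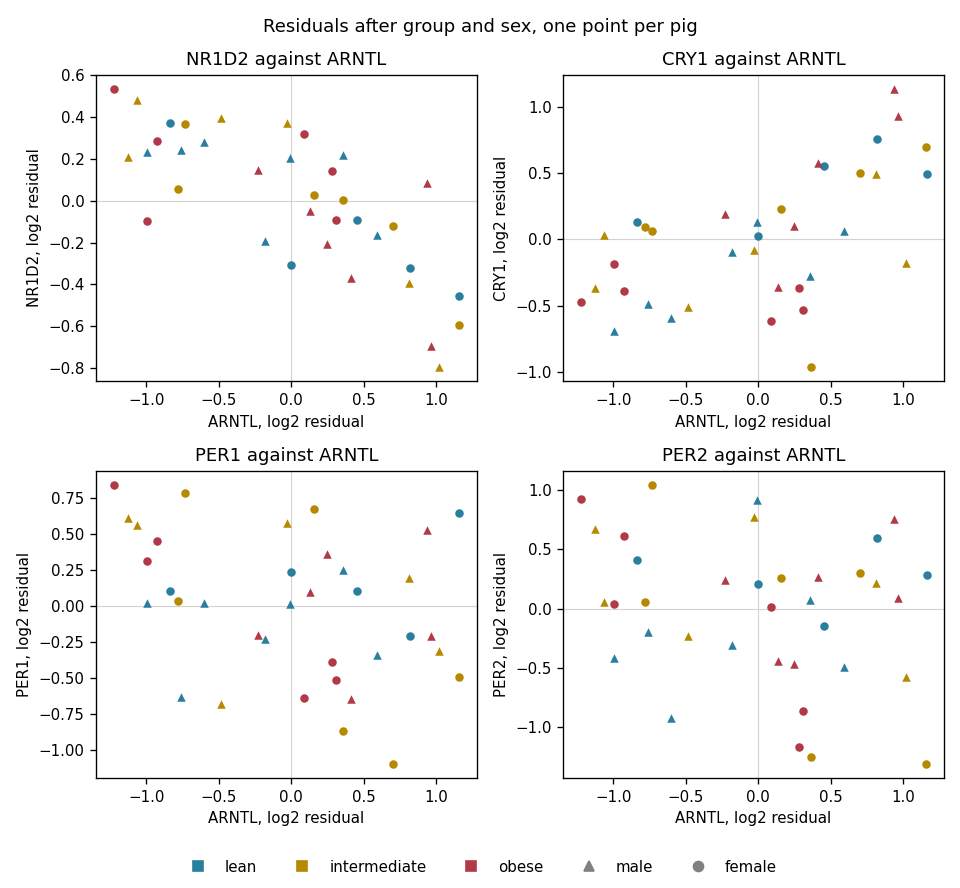
Residuals of NR1D2, CRY1, PER1 and PER2 against those of ARNTL after removal of group and sex (log2 units), 1 point per pig; colours are groups, triangles are males and circles are females. NR1D2 falls along the ARNTL axis (r = -0.759) and CRY1 rises (r = 0.572), while PER1 (r = -0.336) and PER2 (r = -0.255) scatter widely.

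Among the 21 pairs that the 7 genes form, 12 had a positive and 9 a negative correlation after group and sex. These are given as a description, without a test. Apart from ARNTL with NR1D2 and CRY1, the strongest were PER1 with PER2 (r = 0.558), CRY1 with NR1D2 (-0.518), CLOCK with CRY1 (0.485), PER2 with CRY2 (0.463) and CRY2 with NR1D2 (0.414). When grouped after their values were seen, ARNTL, CLOCK and CRY1 were positively correlated with each other, and PER1, PER2, CRY2 and NR1D2 likewise. Of the 12 pairs between these 2 sets, 9 were negative, the exceptions being CRY1 with PER1 (0.120), with PER2 (0.341) and with CRY2 (0.235). All 21 pairs kept their sign after division by the whole size factor.

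**Figure D5:**
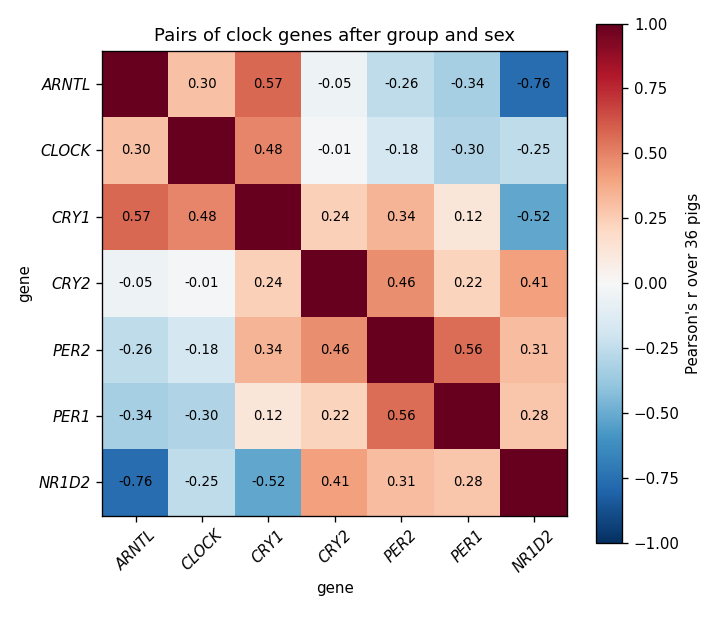
Pearson's r for each pair of the 7 clock genes over 36 pigs after removal of group and sex; red is positive, blue is negative. ARNTL, CLOCK and CRY1 form a positive block at 0.297 to 0.572, PER1, PER2, CRY2 and NR1D2 another at 0.222 to 0.558, and NR1D2 is negative with each gene of the first block, at -0.759, -0.253 and -0.518.

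PER2 was taken as the anchor on the repressor side. Of all genes 0.522% passed for a slope on PER2 in limma (43 positive, 21 negative), and no clock gene of the 7 did. At an unadjusted p below 0.05 there were 3 of 6 clock genes and 14.7% of all genes. There were 2 of 6 when the whole size factor was divided out (14.6% of all genes) or the median subtracted (14.5%), and 4 of 6 without the sex term (16.8%). PER1 had a slope of 0.45 and CRY2 of 0.33, with limma adjusted p-values of 0.0603 and 0.130. With 1 pig left out, the activators had slopes of -0.38 to -0.20 (ARNTL) and -0.18 to -0.09 (CLOCK), and neither passed in any fit. PER1 passed without the sex term, with the lowest 25% of genes removed, and without intermediate pig 4, intermediate pig 5 or obese pig 5 (limma adjusted p = 0.0347, 0.0339 and 0.0485). Again all of its slopes were positive, from 0.42 to 0.49 with 1 pig left out. Without the intensity trend, 19 genes were positive and 3 negative among those called, and with the whole size factor divided out 27 and 4. WEE1, a kinase that delays mitosis and an E-box target of the clock, was the only one of 28 further clock-related genes that passed, with a slope of 0.68 ± 0.15 on PER2 (limma adjusted p = 0.0406) and r = 0.613. It passed in each of the 6 alternatives that kept all pigs (adjusted p 0.0162 to 0.0495) and in 23 of 36 fits with 1 pig left out. It was lost without lean pigs 2, 4, 10 or 12, intermediate pigs 3, 10 or 11 or obese pigs 1, 2, 4, 8, 10 or 11, where adjusted p reached up to 0.13 in limma, with slopes of 0.61 to 0.72.

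The 28 clock-related genes with a row, of 36 listed, included paralogs of the activators, D-box factors, kinases and ligases of the PER and CRY proteins, chromatin cofactors and output genes. None passed for obesity group, for sex or for a slope on ARNTL in limma, with 1 of 28 at an unadjusted p below 0.05 in obese against lean pigs (14.7% of all genes) and 7 of 28 for ARNTL (18.7% of all genes). At the same unadjusted threshold, the interaction of sex with obesity had 7 of 28 (12.9% of all genes), with none past the adjusted threshold. Intermediate against lean pigs had 5 (12.5%), males against females 2 (18.3%) and obese against intermediate pigs 0 (4.28%). For obese minus lean pigs the median was 0.00 over the 28 genes and -0.01 over all genes. By permutation of r, 2 of 28 passed with ARNTL, both positive, where 3.55% of all genes passed; by rho 0 of 28 passed. NPAS2, the paralog that can replace CLOCK as the dimer partner, had r = 0.514 (adjusted permutation p = 0.0459, and 0.0744 for rho), and NONO, a cofactor of the PER complex, r = 0.522 (0.0404, and 0.131 for rho). Within lean, intermediate and obese pigs r was -0.134, 0.568 and 0.716 for NPAS2 and 0.583, 0.309 and 0.597 for NONO. With the whole size factor divided out their r was 0.447 and 0.414, and their limma slopes had adjusted p-values of 0.0813 and 0.104 on the deposited scale.

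The genes most like ARNTL over the 36 pigs were ENSSSCG00000013396 (r = 0.904), THOC2 (0.736), C2CD5 (0.733), GKAP1 (0.731) and ELK4 (0.708). The first has no symbol in the name table. Its number precedes that of ARNTL and it had 14 to 131 reads per pig; whether both rows belong to 1 transcription unit was not tested. Besides NR1D2, the most unlike genes were HAPLN3 (-0.688), ENSSSCG00000030984 (-0.624), ROBO1 (-0.617) and ENSSSCG00000011944 (-0.614). Most like PER2 were ENSSSCG00000023854 (0.910), which has no symbol in the name table either and for which it was likewise not tested whether it belongs to the PER2 transcription unit, PXDC1 (0.769), TRIM47 (0.766), HIC1 (0.713) and CDON (0.708). Most unlike PER2 were DAP3 (-0.658), OXA1L (-0.645), ENSSSCG00000002621 (-0.642), LRPPRC (-0.629) and DNAJC19 (-0.626).

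PER1 and PER2 also respond to hormones and stress, so 3 lists of such genes were compared. The mean scaled level of 6 glucocorticoid-induced genes (FKBP5, ZBTB16, KLF9, SGK1, PDK4 and DUSP1) had r = 0.76 with PER1 and 0.39 with both PER2 and CRY1, compared with 0.10 for ARNTL and -0.12 for NR1D2. These genes summed to 13039 to 49201 normalized counts in lean, 6956 to 28748 in intermediate and 9150 to 27027 in obese pigs. With this score in the fit, the slope of PER1 on ARNTL was -0.29 and passed (limma adjusted p = 0.032), while that of NR1D2 was -0.35 (adjusted p = 0.00162). Of the 17 alternatives that kept all pigs, PER1 passed in this 1 only. For 7 immediate early genes and 5 temperature-responsive genes, the correlations with ARNTL were 0.04 and -0.06 and with NR1D2 -0.18 and -0.21. They were 0.16 and 0.21 with PER1, 0.28 and 0.29 with PER2, 0.23 and 0.31 with CRY1, -0.23 and -0.35 with CRY2, and -0.02 and 0.18 with CLOCK. None of the 18 genes in these 3 lists passed for a slope on ARNTL in limma, and 0 had an unadjusted p below 0.05, where 18.7% of all genes stood. Over the marker lists of adipocytes, macrophages, T or NK cells, fibroblasts, endothelium, blood and skin, the correlations with ARNTL were -0.16 to 0.15 and with NR1D2 -0.09 to 0.11. PER2 stood closer to some of them, with r = 0.42 for fibroblast and 0.38 for macrophage markers, as did PER1 with 0.35 for fibroblast markers and CRY2 with 0.45 for blood and 0.36 for fibroblast markers, and CLOCK with 0.34 for macrophage markers. Their part in the slopes on PER2 was not tested. With any 1 of the marker scores in the fit on ARNTL, NR1D2 passed with a slope between -0.36 and -0.35.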

How the data were processed

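Poly-A RNA of subcutaneous adipose tissue was sequenced by the authors as paired-end reads, mapped to Sscrofa10.2 with STAR and counted per gene with HTSeq. Low genes were removed, size factors were estimated and voom of limma was applied. The deposited values are log2((reads + 0.5)/(size factor + 1) × 1000000), as the steps between low values show. This formula leaves a span of 0.287 of the 0.565 log2 units between size factors. Whole reads were recovered within 0.1 for 99.85% of values in the least regular column. The methods name a correction for gender, which the deposited values, being on whole-read steps, do not carry.

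The 36 pigs (12 per group) were analysed with limma 3.58.1 in R 4.3.3 (empirical Bayes with intensity trend, group and sex as terms) over all 12253 genes, at a Benjamini-Hochberg adjusted p of 0.05. Correlations were computed on residuals in Python 3.11.15 with numpy 2.4.6 and 100000 permutations. Gene names were matched for 8320 IDs. The limma fits for obese minus lean and for the slope on ARNTL, and the permutation step, were tested on simulated data. The other fits, the read recovery and the list scores were not. The members and lists were chosen with earlier results of these data known. Named genes were all members, other clock genes that passed any test, and the 5 highest and 5 lowest correlations with ARNTL and PER2; stress and marker genes were named to show their lists. A further clock-related gene, which is in the counts of such genes, is not reported here. Alternatives were no sex term, no trend, removal of the lowest 25% of genes (which drops ARNTL and CLOCK as tested genes), subtraction of each pig's median, voom weights, lean and obese pigs alone, and each pig left out. Division by the whole size factor, list scores and the log2 size factor as terms were chosen after seeing the data. Promoter sequences were not used here. Lanes and sibs were not given per pig in the sources used here.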

Additional observations from a re-analysis of the deposited data

How the results depend on the processing

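No clock gene passed for the 3 group differences or the trend under any alternative run. Neither did one for sex (no trend, whole size factor, median subtracted) or the interactions (no trend, whole size factor), which were not refitted with pigs left out. For slopes on ARNTL 2 clock genes passed; the number was 1 with the whole size factor, with each pig's median subtracted, without the sex term and with the log2 size factor as a term, and 1 to 2 with 1 pig left out, CRY1 being the gene lost in each. With the glucocorticoid score it was 3, PER1 being the gene added. For slopes on PER2, 0 clock genes passed; 1 (PER1) did so without the sex term and with the lowest 25% of genes removed, and 0 to 1 with 1 pig left out. The cause was not tested. The correlation of NR1D2 with ARNTL, -0.759, was -0.847 in intermediate and -0.425 in obese pigs alone, and -0.798 to -0.736 with 1 pig left out. The difference of PER2 between obese and intermediate pigs, 0.00, turned to -0.0004 with the whole size factor, -0.0078 with the median subtracted and -0.008 with voom weights, and ran from -0.12 to 0.11 with 1 pig left out. Other differences near 0 also changed sign with 1 pig left out: obese minus lean from -0.065 to 0.124 for CRY1 and from -0.117 to 0.0475 for CRY2, the trend per group step from -0.0306 to 0.0594 for CRY1 and from -0.063 to 0.0183 for CRY2, obese minus intermediate from -0.0156 to 0.160 for PER1, and the slope of CRY2 on ARNTL from -0.0822 to 0.0123. No paired analysis was possible because the pigs carry no shared replicate numbers; numbers were given in accession order. Depth adds a counting SD of 0.27 to CLOCK and 0.20 to ARNTL on the log2 scale, below their SDs between pigs of 0.58 and 0.78.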
